A study of Mus musculus with 32 samples.

Results

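The aryl hydrocarbon receptor (AHR) and its classical target genes were followed through every treatment of a series in mouse embryonic stem cells. The members were 8 genes taken by symbol from a list: the receptor gene Ahr, its repressors Ahrr and Tiparp, and the target genes Cyp1a1, Cyp1a2, Cyp1b1, Nqo1 and Aldh3a1. They are 8 of the 17424 distinct gene names listed over 5 tables of normalised counts. The rule of the list used no measured values of these libraries. The list was, however, chosen with earlier results of these data known. Counts of its members beside shares of all genes therefore describe the list and do not test it. AHR is a ligand-activated transcription factor that waits in the cytoplasm in a complex with HSP90 chaperones. Bound by a ligand, it enters the nucleus, pairs with ARNT and binds short DNA sequences with the core GCGTG. Its ligands include dioxins, polycyclic aromatic hydrocarbons and several indoles made from tryptophan, and its targets include oxidising enzymes of the cytochrome P450 family and repressors that limit its own activity.

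All 32 libraries were of the line E14, mouse embryonic stem cells, with 2 libraries in each of 16 groups. CTCF AID cells carry an auxin-inducible degron, a tag through which an auxin leads to destruction of CTCF, the zinc-finger protein at which chromatin loops are anchored. They were sampled untreated and after 12 h or 24 h of 500 uM indole-3-acetic acid (IAA), and in a condition labelled serum untreated and after 12 h of IAA. CTCF AID cells that overexpressed a control, wild-type CTCF or a mutated CTCF were sampled with and without IAA, and the labels do not say which mutation it was. RAD21 AID cells, whose degron is on a subunit of cohesin, were sampled untreated and after 12 h or 24 h. Their treatment protocol names 1 uM 5-Ph-IAA, which is IAA with a phenyl group added to its indole ring, while their treatment label says IAA. The last pair of groups were CTCF AID cells with a control hairpin or a hairpin against Chd4, the ATPase of the NuRD chromatin remodelling complex, and no auxin is named for them. Every IAA-treated library came from cells whose endogenous CTCF carries the degron, so in lines without supplied CTCF an effect of the compound and an effect of CTCF loss cannot be told apart. The wild-type CTCF line was given IAA while CTCF was supplied, and its response is compared with that of control cells as an interaction further on. The labels do not say whether the supplied protein carries the degron. For 5-Ph-IAA and loss of RAD21 there is no such line, and they cannot be told apart.

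The titles and treatment labels of 4 overexpression libraries disagree: the pair titled mutated CTCF and no IAA carries a label of 12 h of treatment, and the pair titled wild-type CTCF plus IAA carries a label of none. Groups here follow the titles, and the 12 h of IAA in the overexpression table is therefore stated by label only for the control and mutated CTCF cells. The growth protocol names only a serum-free medium, also for the 4 libraries labelled serum. The labels do not say whether paired libraries came from separate cultures, so a p-value measures the spread between these libraries, which may be technical. Library totals lay between 15364584 and 19642332 normalised counts, and the number of reads behind a value is not known. Embryonic stem cell markers were present in all 32 libraries, with Pou5f1 between 8500.3 and 16923 normalised counts. The degron acts on the protein, so Ctcf and Rad21 mRNA levels do not check the treatment. Ctcf stood at 4134 and 4332 in untreated overexpression control cells, at 9275 and 9481 with wild-type CTCF and at 9589 and 9712 with mutated CTCF, which fits the labels of those lines. With IAA it stood at 5185 and 5098 in control cells and at 11630.5 and 11077 with wild-type CTCF.

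The stretches of DNA before the start sites of 4 members are shown because they carry, or lack, the AHR core motif in the genes whose levels differed most between groups. They are the 250 bases before the RefSeq start site on GRCm38.p6, read 5′ to 3′ on the gene's strand, and capitals mark each GCGTG on that strand or its reverse complement CACGC.
Ahrr promoter, chr13:74292332-74292581, minus strand: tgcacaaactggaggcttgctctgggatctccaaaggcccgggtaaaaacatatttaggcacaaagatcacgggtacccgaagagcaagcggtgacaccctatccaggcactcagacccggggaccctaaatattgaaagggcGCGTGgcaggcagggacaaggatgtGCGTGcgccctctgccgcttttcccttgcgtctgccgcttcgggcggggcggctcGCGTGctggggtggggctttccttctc
Cyp1a1 promoter, chr9:57697363-57697612, plus strand: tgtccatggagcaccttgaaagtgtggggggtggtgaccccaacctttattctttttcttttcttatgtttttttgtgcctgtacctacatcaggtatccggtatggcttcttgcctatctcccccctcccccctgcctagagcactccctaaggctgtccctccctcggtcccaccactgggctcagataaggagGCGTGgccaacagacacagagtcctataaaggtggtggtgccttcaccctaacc
Cyp1b1 promoter, chr17:79715062-79715311, minus strand: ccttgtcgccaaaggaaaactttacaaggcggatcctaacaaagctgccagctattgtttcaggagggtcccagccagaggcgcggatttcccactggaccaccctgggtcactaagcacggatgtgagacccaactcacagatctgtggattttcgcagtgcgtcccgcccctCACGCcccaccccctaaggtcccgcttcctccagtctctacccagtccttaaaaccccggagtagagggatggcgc
Cyp1a2 promoter, chr9:57683656-57683905, minus strand: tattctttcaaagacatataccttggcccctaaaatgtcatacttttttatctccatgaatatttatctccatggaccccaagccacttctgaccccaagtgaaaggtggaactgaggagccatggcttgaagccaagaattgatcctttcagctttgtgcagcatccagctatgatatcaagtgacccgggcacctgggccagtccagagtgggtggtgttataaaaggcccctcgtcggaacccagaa
Ahrr held the motif 3 times, with first bases 107, 82 and 27 bases before the start, all on the gene's own strand. Cyp1a1 held it at 54 bases before the start and Cyp1b1 at 76 bases on the opposite strand. Tiparp held it at 170 bases on the opposite strand, and neither Cyp1a2 nor Nqo1 held it in this window. Of 32851 promoters in the RefSeq table, 28.16% held at least 1 match in the same window, 8.633% at least 2 and 2.773% at least 3. The window of Cyp1a1 starts from the RefSeq start site, which lies inside the gene as GENCODE M21 draws it (chromosome 9, 57687928 to 57703824). Cyp1a2 lies on the same chromosome on the minus strand (57676937 to 57683703), so the start sites of this pair face away from each other. Between the 2 genes as GENCODE draws them lie 4225 bases, and the RefSeq start sites used for the windows lie further apart. Ahr and Aldh3a1 are named without a promoter.

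In untreated CTCF AID cells the members covered a wide range of levels. On a scale of mean normalised count per kilobase of exon, Nqo1, a quinone-reducing enzyme, stood highest at 984 and Tiparp, an ADP-ribosyltransferase that restrains AHR, followed at 140.2. Ahr stood at 40.6 per kilobase, Cyp1a1 at 32.2, and Aldh3a1, an aldehyde dehydrogenase, at 25.0. The values of the single libraries of Cyp1a1 and Aldh3a1 overlapped on this scale. Cyp1a2 was low at 4.90 per kilobase. Ahrr at 0.879 and Cyp1b1 at 0.801 were lowest, and their libraries overlapped. In the serum table Ahrr and Cyp1a2 are not listed, and in the RAD21 table Cyp1a2 and Cyp1b1 are not listed, so those members have no value there.

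After 12 h of IAA in CTCF AID cells, 6 of the 8 members tested were called higher and none lower at a limma adjusted p under 0.05, and 1 (Ahr) was lower at an unadjusted p under 0.05. Over all genes tested 9.39% were called higher and 8.4% lower. The members called were Ahrr, Cyp1a1, Cyp1b1, Cyp1a2, Nqo1 and Tiparp. After 24 h the same 6 genes were called higher, against 11.7% of all genes higher and 10.8% lower, with no member lower at an unadjusted p under 0.05, and both times were compared with the same untreated libraries. In serum, 1 of 6 tested members was called higher (Cyp1a1, background 7.73%) and 1 lower (Ahr, background 9.25%). In overexpression control cells, 4 of 8 were called higher (Cyp1a1, Cyp1b1, Cyp1a2 and Nqo1, background 12.8%) and 2 lower (Ahr and Tiparp, background 12.5%). In wild-type CTCF cells, 3 were called higher (Cyp1a1, Cyp1b1 and Nqo1, background 11.1%) and 2 lower (Ahr and Tiparp, background 10.3%). In mutated CTCF cells, the same 4 genes as in control cells were called higher (background 8.31%), and Ahr and Tiparp were called lower (background 7.92%). When the 4 libraries in question were instead grouped by their treatment label, the spread in the fit grew and the calls in control cells did not hold, with Cyp1a1 at 2.99 ± 1.34 (adjusted p = 0.216). Without those 4 libraries the control count was again 6.

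**Figure D1:**
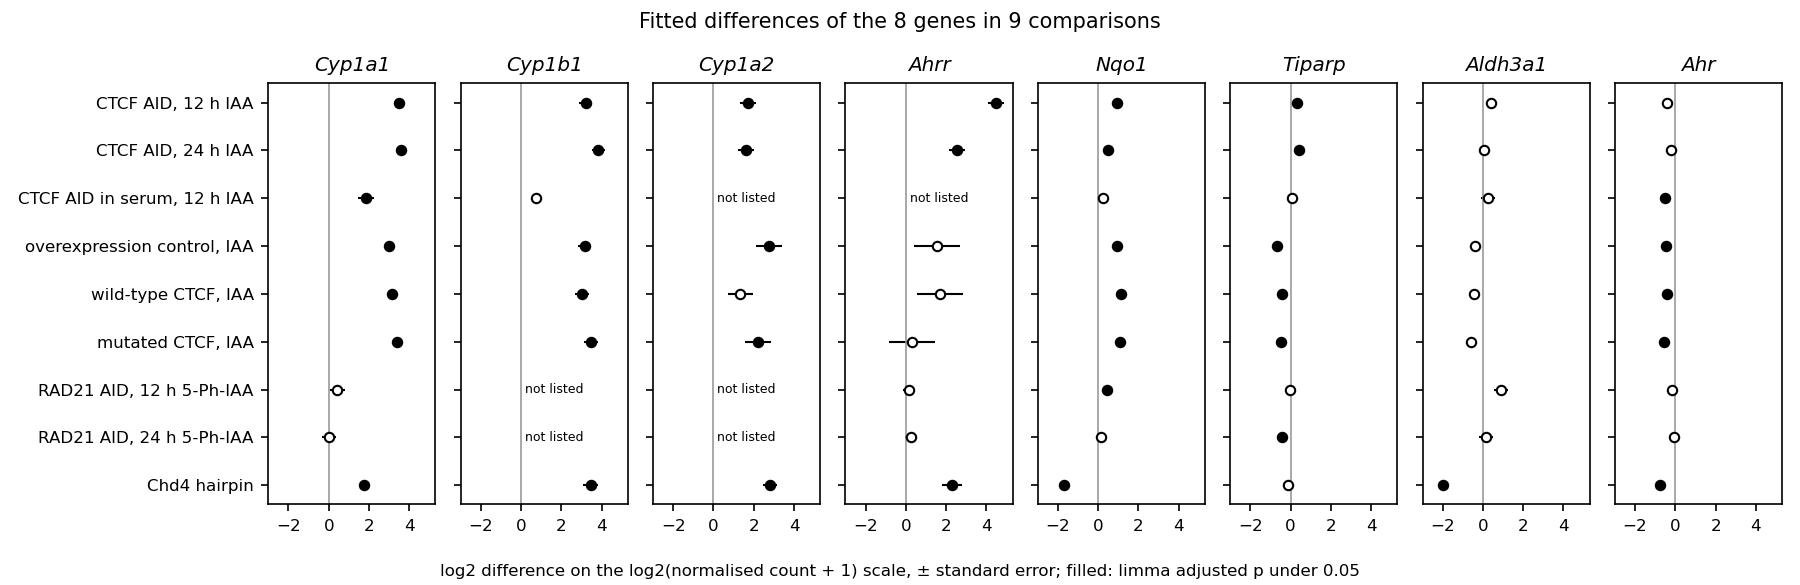
Log2 difference of each gene (columns) in 9 comparisons (rows), on the log2(normalised count + 1) scale with its standard error, filled where limma's adjusted p was under 0.05. Cyp1a1 and Cyp1b1 lie far to the right under IAA in serum-free and overexpression cells and under the Chd4 hairpin, Nqo1 lies to the right under IAA and to the left under the Chd4 hairpin.

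Ahr encodes the receptor itself. It stood at 236 and 264 normalised counts in untreated CTCF AID cells, after 12 h of IAA at 184 and 191, and after 24 h at 202 and 225. Both treated pairs lay below the untreated pair without overlap, but neither difference passed the test, with log2 differences of -0.41 ± 0.13 (SE, adjusted p = 0.0731) and -0.23 ± 0.13 (adjusted p = 0.256). In serum Ahr fell from 159 and 149 to 109.8 and 108, a log2 difference of -0.49 ± 0.13 (adjusted p = 0.0453). That call did not hold without any 1 of the 4 serum libraries (adjusted p = 0.0877 to 0.172).

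In the overexpression table, Ahr fell from 303 and 301 to 215 and 218 in control cells (log2 difference -0.48 ± 0.11, adjusted p = 0.00837). With wild-type CTCF it fell from 371 and 307 to 263 and 246 (-0.41 ± 0.11, adjusted p = 0.0226). With mutated CTCF it fell from 373 and 343 to 241 and 248 (-0.55 ± 0.11, adjusted p = 0.00601). Treated and untreated libraries did not overlap in any of these lines. Counting CTCF AID cells at 12 h, serum and these lines as 5 comparisons, Ahr was lower in all 10 treated libraries than in their untreated pair. Of these comparisons 4 passed the test. The share of all genes without overlap was not computed, so lack of overlap, here and for the other genes, describes the libraries and is not a test. The wild-type call was lost without wild-type replicate 1 (adjusted p = 0.156) or without either IAA-treated wild-type library (0.0588 and 0.124), and in a fit of those groups alone (0.086). The mutated call was also lost, just above the threshold, without the first untreated mutated library (log2 difference -0.49). Ahr shares 127 exon bases with the opposite-strand gene Gm48236, and whether counting used strand is not given in the sources used here, so its level is uncertain to that extent.

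Ahrr encodes the AHR repressor, which competes with AHR for ARNT. In CTCF AID cells it rose from 10.3 and 6.30 normalised counts to 284 and 145 after 12 h of IAA, and stood at 47.7 and 55.5 after 24 h. All treated libraries lay above the untreated ones. The log2 difference was 4.49 ± 0.39 at 12 h (adjusted p = 0.000605) and 2.53 ± 0.39 at 24 h (adjusted p = 0.00467). It was 1.96 log2 units lower at 24 h than at 12 h in the same fit (-1.96 ± 0.39), which did not pass the adjustment (adjusted p = 0.115). Because Ahrr was low without IAA, the size depends on the pseudocount: with 10 in place of 1 the 12 h difference was 3.55.

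In the overexpression lines Ahrr varied widely between paired libraries. Control cells held 11.8 and 50.8 normalised counts without IAA and 26.3 and 206 with it. With wild-type CTCF the values were 14.9 and 7.66 without IAA and 37.0 and 37.7 with it. With mutated CTCF they were 129 and 9.44 without IAA and 40.7 and 49.8 with it. Only the wild-type pairs did not overlap, and no difference passed the test, with log2 differences of 1.54, 1.71 and 0.32, each ± 1.14 (adjusted p = 0.36, 0.322 and 0.884). When the wild-type groups were fitted alone, without the spread of the other lines, the wild-type difference passed (1.71 ± 0.42, adjusted p = 0.0421).

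Tiparp, which ADP-ribosylates AHR and is itself an AHR target, moved in opposite directions in different tables. It rose from 614 and 607 normalised counts in untreated CTCF AID cells to 759.8 and 762 at 12 h and 854 and 797 at 24 h. These rises were log2 differences of 0.32 ± 0.07 (adjusted p = 0.0266) and 0.43 ± 0.07 (adjusted p = 0.00692). The 12 h call was lost without any 1 of the 4 libraries (adjusted p = 0.103 to 0.118). In serum it stood at 1762 and 1686 without IAA and 1778 and 1808 with it, a difference of 0.06 that did not pass (adjusted p = 0.428).

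In overexpression control cells Tiparp fell from 1262 and 1328 to 852 and 782 (log2 difference -0.67 ± 0.07, adjusted p = 5.89e-05). With wild-type CTCF it fell from 1416 and 1363 to 1028 and 1006 (-0.45 ± 0.07, adjusted p = 0.00113). With mutated CTCF it fell from 1417 and 1269 to 978 and 919.7 (-0.50 ± 0.07, adjusted p = 0.000794). Every treated library of these 3 lines lay below every untreated one of the same line. The tables were normalised separately, and the difference in direction between them was not tested. Tiparp shares 223 exon bases with the opposite-strand pseudogene 4931440P22Rik, so the same uncertainty on strand applies.

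**Figure D2:**
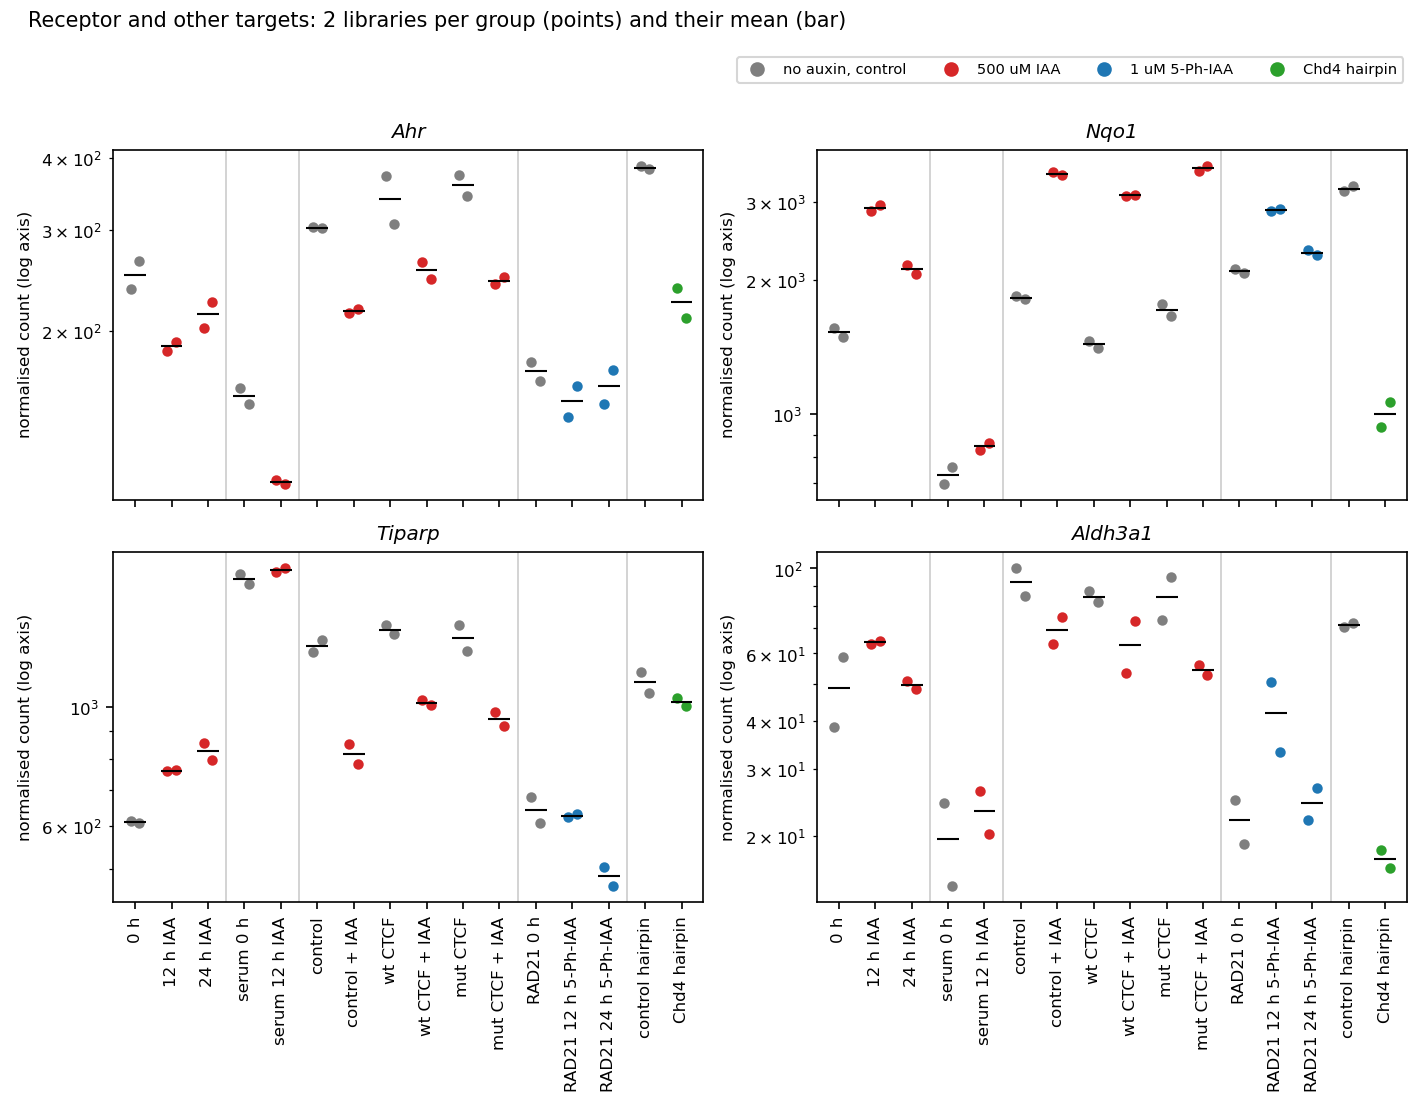
Normalised counts on log axes of Ahr, Nqo1, Tiparp and Aldh3a1 in each library (points, 2 per group) with the group mean (bar), by group along the horizontal axis and with the separately normalised tables divided by vertical lines. Ahr is lower and Nqo1 higher with IAA in each line, while Tiparp is higher with IAA in CTCF AID cells (759.8 and 762 against 614 and 607 at 12 h) and lower in the overexpression lines.

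Cyp1a1, the P450 enzyme most often used as a readout of AHR activity, rose in each of the IAA comparisons. Its level went from 101 and 78.1 normalised counts in untreated CTCF AID cells to 981 and 1049.8 at 12 h and to 1066 and 1118 at 24 h. This was 11.3-fold at 12 h (log2 difference 3.50 ± 0.13, adjusted p = 7.6e-05) and 12.1-fold at 24 h (3.60 ± 0.13, adjusted p = 3.9e-05). The level at 24 h differed from that at 12 h by 0.11 log2 units (95% interval -0.21 to 0.42). In serum Cyp1a1 started from 5.31 and 8.48 and reached 25.2 and 29.0, a log2 difference of 1.86 ± 0.39 (adjusted p = 0.0185). The serum call was lost without either treated library (adjusted p = 0.103 and 0.13).

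In overexpression control cells Cyp1a1 rose from 109 and 105 to 883 and 833 (log2 difference 2.99 ± 0.10, adjusted p = 2.35e-08). With wild-type CTCF it rose from 107 and 94.8 to 833 and 946 (3.12 ± 0.10, adjusted p = 3.97e-08). With mutated CTCF it rose from 142 and 138 to 1553 and 1429 (3.40 ± 0.10, adjusted p = 2.41e-08). The treated libraries of the mutated line were the highest of the table, and no treated library overlapped an untreated one.

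Cyp1b1, a P450 expressed mainly outside the liver, also rose with IAA in CTCF AID cells and the overexpression lines. In CTCF AID cells it went from 5.08 and 4.27 normalised counts to 60.8 and 43.9 at 12 h and 88.8 and 70.4 at 24 h. These were log2 differences of 3.22 ± 0.32 (adjusted p = 0.00105) and 3.82 ± 0.32 (adjusted p = 0.00039), and 2.07 at 12 h with a pseudocount of 10. In the serum table its untreated level was 28.6 and 34.1, and with IAA it stood at 53.5 and 53.9, a log2 difference of 0.76 ± 0.23 that did not pass (adjusted p = 0.0622). The serum libraries did not overlap.

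In the overexpression lines Cyp1b1 rose from 6.37 and 6.66 to 66.8 and 64.9 in control cells (log2 difference 3.15 ± 0.34, adjusted p = 7.31e-05). With wild-type CTCF it rose from 5.41 and 7.29 to 59.7 and 56.3 (3.02 ± 0.34, adjusted p = 0.000174). With mutated CTCF it rose from 14.5 and 7.00 to 122 and 124 (3.48 ± 0.34, adjusted p = 9.62e-05). As for Cyp1a1, the treated mutated line held the highest values of the table.

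Cyp1a2, the P450 known best from liver, was the least precise of the 3 enzymes. It rose from 9.08 and 10.7 normalised counts in CTCF AID cells to 26.7 and 45.7 at 12 h and 39.8 and 25.8 at 24 h (log2 differences 1.73 ± 0.40 and 1.61 ± 0.40, adjusted p = 0.0269 and 0.0288). Control cells went from 2.95 and 4.39 to 52.8 and 16.9 (2.75 ± 0.63, adjusted p = 0.00915), and mutated CTCF cells from 8.00 and 10.9 to 39.5 and 56.6 (2.22 ± 0.63, adjusted p = 0.0361). With wild-type CTCF it stood at 18.8 and 4.57 without IAA and 24.8 and 26.2 with it, which did not pass (1.33 ± 0.63, adjusted p = 0.162). Treated libraries lay above untreated ones in each of these comparisons.

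The Cyp1a2 calls changed when single libraries were left out. The 12 h call in CTCF AID cells was lost without any 1 of its 4 libraries (adjusted p = 0.0518 to 0.147), and the 24 h call without either untreated library or the first 24 h library (0.0888 to 0.123). The control call was lost without the first untreated (0.0521) or the first treated control library (0.0828). The mutated call was lost without any 1 of its 4 libraries (0.0884 to 0.184). The wild-type difference passed without the first untreated wild-type library (2.25, adjusted p = 0.0407).

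**Figure D3:**
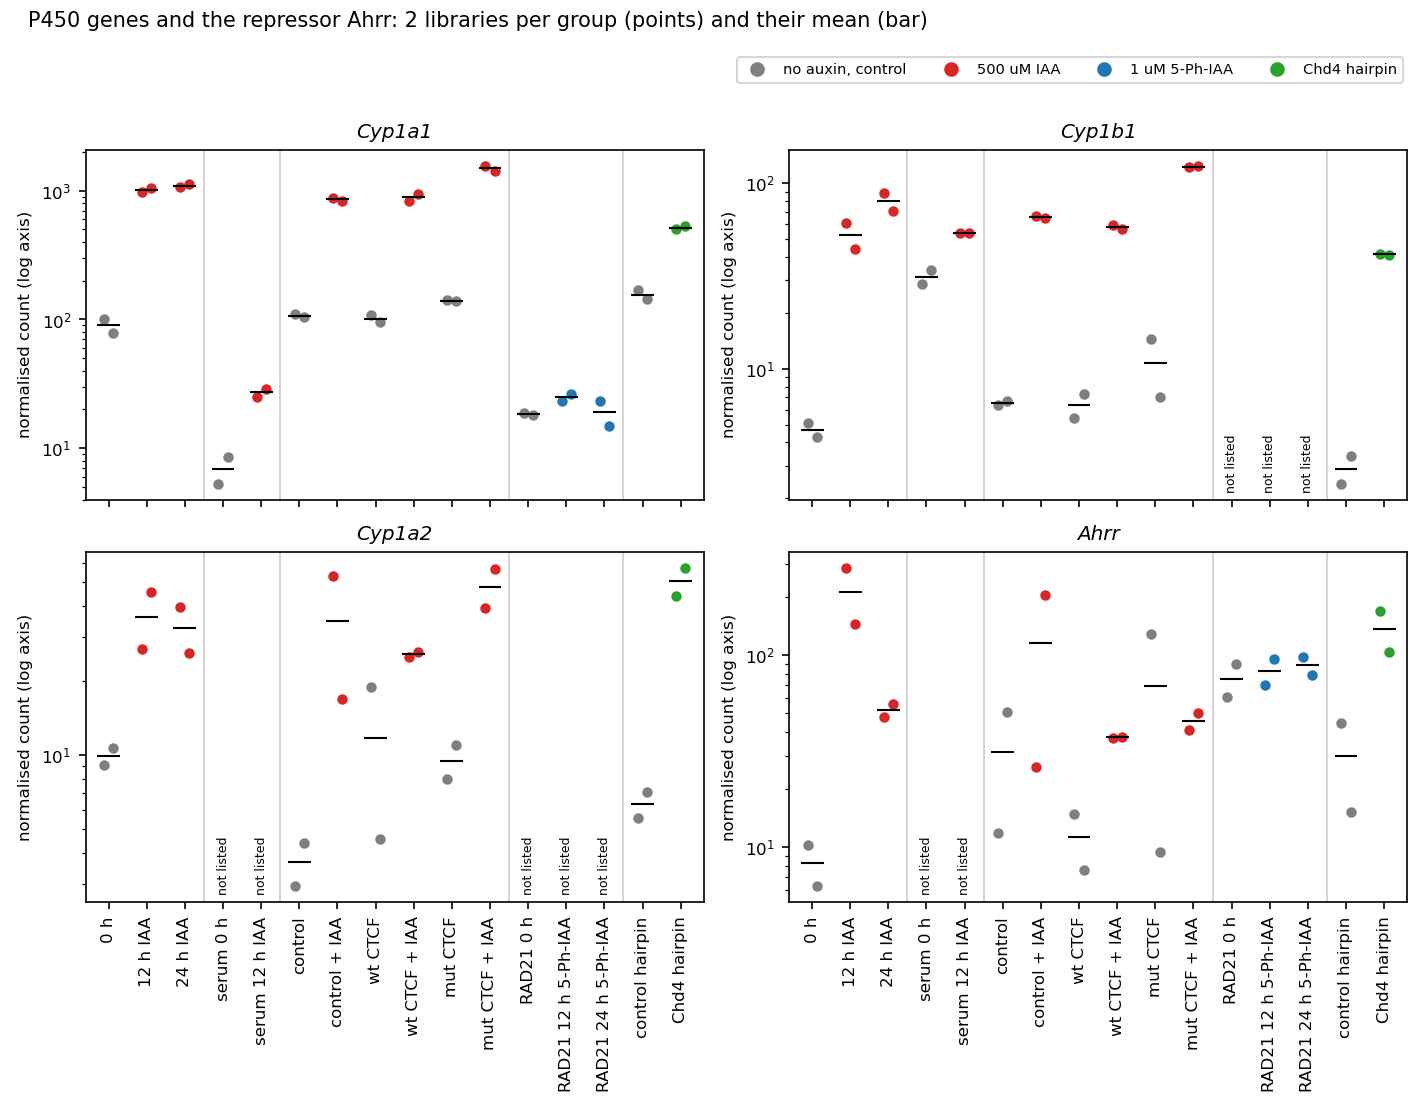
Normalised counts on log axes of Cyp1a1, Cyp1b1, Cyp1a2 and Ahrr in each library (points, 2 per group) with the group mean (bar), with the separately normalised tables divided by vertical lines. Cyp1a1 sits between 981 and 1118 in CTCF AID cells with IAA against 78.1 and 101 without, stays between 14.8 and 26.4 in RAD21 AID cells, and reaches 506 and 528 with the Chd4 hairpin.

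Nqo1 is a target of AHR and also of NRF2, the transcription factor of the oxidative stress response. In CTCF AID cells it rose from 1562 and 1494 normalised counts to 2864 and 2951 at 12 h (log2 difference 0.93 ± 0.05, adjusted p = 0.000147). At 24 h it stood at 2169 and 2063, still above the untreated libraries (0.47 ± 0.05, adjusted p = 0.00142). Nqo1 was the 1 member that differed between 12 h and 24 h (-0.46 ± 0.05, adjusted p = 0.0403), where 0.146% of all genes were called in either direction. That call was lost without any 1 of the 4 libraries at 12 h and 24 h (adjusted p = 0.0601 to 0.256).

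In serum Nqo1 stood at 699 and 762 without IAA and 831 and 864 with it, which did not pass (0.22 ± 0.07, adjusted p = 0.0734). It rose from 1840.0 and 1815 to 3499.9 and 3451 in overexpression control cells (0.93 ± 0.04, adjusted p = 1.4e-07). With wild-type CTCF it rose from 1464 and 1408 to 3093 and 3115 (1.11 ± 0.04, adjusted p = 1.09e-07), and with mutated CTCF from 1766 and 1661 to 3527 and 3614 (1.06 ± 0.04, adjusted p = 1.82e-07). Its untreated and treated libraries did not overlap in any table with IAA.

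Aldh3a1 did not pass the test in any IAA comparison. It stood at 38.7 and 58.6 normalised counts in untreated CTCF AID cells, at 63.5 and 64.7 after 12 h of IAA and at 50.9 and 48.6 after 24 h. In serum it stood at 24.5 and 14.8 without and 26.2 and 20.2 with IAA. In the overexpression lines all treated libraries were below the untreated ones of the same line: 100.1 and 84.6 against 63.7 and 74.9 in control cells, 87.1 and 81.5 against 53.5 and 73.1 with wild-type CTCF, and 73.3 and 94.9 against 56.1 and 52.6 with mutated CTCF. Their log2 differences were -0.41, -0.42 and -0.61, each ± 0.22, with adjusted p of 0.196, 0.191 and 0.0823.

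Whether supplied CTCF changed the response to IAA was tested as an interaction within the overexpression table. For wild-type CTCF against control, limma called 0 of the 8 members, against 1.41% of all genes, and 2 members (Nqo1 and Tiparp) had an unadjusted p under 0.05. For mutated CTCF it also called 0 of 8, against 1.64% of all genes, and 2 members (Cyp1a1 and Nqo1) had an unadjusted p under 0.05. The Cyp1a1 response differed from that of control cells by 0.13 log2 units with wild-type CTCF (95% interval -0.18 to 0.45, adjusted p = 0.792). It differed by 0.41 with mutated CTCF (95% interval 0.10 to 0.73, adjusted p = 0.251). For Cyp1b1 the intervals were -1.19 to 0.92 and -0.73 to 1.38. For Nqo1 the response was larger by 0.19 with wild-type CTCF (0.06 to 0.31, adjusted p = 0.219). These intervals bound the differences, and a p above the threshold does not show that the lines responded alike.

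Before any IAA, wild-type CTCF cells differed from control cells in 1 member, against 0.897% of all genes: Nqo1 stood at 1464 and 1408 against 1840.0 and 1815 (log2 difference -0.35 ± 0.04, adjusted p = 0.00379). That call was lost in a fit of these groups alone (adjusted p = 0.149). With mutated CTCF limma called 0 of 8 members, against 5.55% of all genes, and 3 members (Ahr, Cyp1a1 and Nqo1) had an unadjusted p under 0.05. Cyp1a1 stood at 142 and 138 there against 109 and 105 in control cells, without overlap (0.38 ± 0.10, adjusted p = 0.0527). These are the libraries titled without IAA and labelled as treated for 12 h, and their Cyp1a1 level lay far below that of every library titled as treated in the same table (833 to 1553).

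In RAD21 AID cells treated with 5-Ph-IAA, Nqo1 rose at 12 h and Tiparp fell at 24 h, and Cyp1a1 did not pass the test at either time. At 12 h, 1 of 6 tested members was called higher, against 6.66% of all genes, and none lower, against 6.35%, also at an unadjusted p under 0.05. Nqo1 went from 2125 and 2081 normalised counts to 2862 and 2892 at 12 h (log2 difference 0.45 ± 0.04, adjusted p = 0.00169) and stood at 2335 and 2280.2 at 24 h (0.13 ± 0.04, adjusted p = 0.0783). At 24 h no member was called higher, against 6.54% of all genes, with Nqo1 alone at an unadjusted p under 0.05, and Tiparp was called lower, against 7.16%. Tiparp stood at 679.8 and 607 untreated, 623 and 632 at 12 h, and 504 and 465 at 24 h (-0.41 ± 0.09, adjusted p = 0.0302). The Tiparp call at 24 h was lost without any 1 of its 4 libraries (adjusted p = 0.058 to 0.128) and in a fit of those groups alone (0.058). Between 12 h and 24 h Nqo1 (-0.32 ± 0.04, adjusted p = 0.00412) and Tiparp (-0.37 ± 0.09, adjusted p = 0.0351) fell, against 15.9% of all genes called in either direction. This Tiparp call was also lost without any 1 of its 4 libraries (adjusted p = 0.0701 to 0.139).

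Cyp1a1 in RAD21 AID cells stood at 18.7 and 18.0 normalised counts untreated, 23.4 and 26.4 at 12 h, and 23.1 and 14.8 at 24 h. The 12 h libraries lay above the untreated ones, and the 24 h libraries fell on both sides of them. The log2 differences were 0.42 (95% interval -0.45 to 1.28) and 0.02 (-0.85 to 0.88). Ahrr overlapped at all times, at 60.7 and 90.0, 70.3 and 95.9, and 97.9 and 79.0. Ahr stood at 176 and 163, 141 and 160.3, and 149 and 171, with log2 differences of -0.17 and -0.09 that did not pass. Aldh3a1 stood at 24.9 and 19.1, 50.5 and 33.2, and 22.1 and 26.7, and its 12 h difference of 0.88 ± 0.35 did not pass (adjusted p = 0.144).

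IAA and 5-Ph-IAA were given at 500 uM and 1 uM to different lines with different degrons and in separately normalised tables, so their values are only set side by side and not compared. At 12 h Cyp1a1 showed a log2 difference of 3.50 ± 0.13 with IAA in CTCF AID cells and 0.42 ± 0.37 with 5-Ph-IAA in RAD21 AID cells. Nqo1 showed 0.93 ± 0.05 and 0.45 ± 0.04, Ahrr 4.49 ± 0.39 and 0.15 ± 0.27, and Ahr -0.41 ± 0.13 and -0.17 ± 0.15. Dose, compound, degraded protein and cell line all differ between them and cannot be told apart.

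With the hairpin against Chd4, the 3 P450 genes and Ahrr rose while Ahr, Nqo1 and Aldh3a1 fell. Chd4 itself went from 9923 and 9526 normalised counts to 3379 and 3729, which fits the labels. Of the 8 members 4 were called higher, against 33.5% of all genes tested, and 3 lower, against 33.8%. With so large a share of all genes called, the number of members called is not in itself a result about them, and the values of each gene carry the description.

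Cyp1a1 rose from 168 and 144 to 506 and 528 (log2 difference 1.73 ± 0.12, adjusted p = 3.32e-05). Cyp1b1 rose from 2.40 and 3.37 to 41.6 and 40.9 (3.45 ± 0.38, adjusted p = 0.000244), and with a pseudocount of 10 its difference was 1.99. Cyp1a2 rose from 5.57 and 7.08 to 44.1 and 57.0 (2.81 ± 0.34, adjusted p = 0.000387), or 1.88 with a pseudocount of 10. No hairpin library overlapped a control library for these enzymes. Ahrr rose from 44.3 and 15.2 to 170.1 and 104 (2.30 ± 0.49, adjusted p = 0.00519), a call lost without either Chd4 hairpin library (adjusted p = 0.079 and 0.139).

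Ahr, Nqo1 and Aldh3a1 went the other way. Ahr fell from 387 and 382 to 238 and 211 (log2 difference -0.78 ± 0.11, adjusted p = 0.000807). Nqo1 fell from 3169 and 3258 to 935 and 1064 (-1.69 ± 0.07, adjusted p = 5.95e-06). Aldh3a1 fell from 70.5 and 71.8 to 18.4 and 16.5 (-1.97 ± 0.25, adjusted p = 0.000503). Each of these falls was without overlap. Tiparp stood at 1159 and 1059 with the control hairpin and 1038 and 1004 with the Chd4 hairpin, and did not pass (-0.12 ± 0.07, adjusted p = 0.178).

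Markers of other cell types also differed with the Chd4 hairpin, where 33.5% of all genes were called higher and 33.8% lower, so the number of markers called says little by itself. The summed level of 5 primitive endoderm markers was 99.8 to 117 in control and 323 to 352 in hairpin libraries, with 3 of 5 called higher and 2 lower. Of 5 fibroblast markers 4 were listed, their sum was 239.5 to 316 and then 569.6 to 659, and 3 of the 3 tested were called higher. The 3 listed of 5 trophoblast markers summed to 1575 to 1678 and then to 953 to 981, and Cdx2 and Elf5 are not listed. The 6 embryonic stem cell markers summed to 59865 to 60120.3 and then to 47190.2 to 48108, with 4 called lower. The part of these cells in the changes of the AHR genes was not tested, and in bulk libraries a change in the number of cells of a type and a change in RNA per cell cannot be told apart.

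Markers of other cell types were also followed under IAA. With limma, 0 of 2 listed primitive endoderm markers and 0 of 2 listed fibroblast markers were called in CTCF AID cells at 12 h or 24 h, nor did any reach an unadjusted p under 0.05, while Gata6, Sox17, Sox7, Col1a2, Col3a1 and Postn are not listed. Trophoblast markers summed to 1279 to 1294 untreated and 1005 to 1099 at 12 h. Of 2 tested, 1 was called lower at that time, where 8.4% of all genes were. At 24 h the trophoblast sum was 1144 to 1189. Limma then called 0 of 2, with 1 higher and 1 lower at an unadjusted p under 0.05. The 6 embryonic stem cell markers summed to 54477 to 54533 untreated, 51341 to 51902 at 12 h and 50627 to 51814 at 24 h. At 12 h 1 of these 6 was called higher and 1 lower, and at 24 h 1 was higher and 2 lower. The background was 9.39% higher and 8.4% lower at 12 h, and 11.7% and 10.8% at 24 h. In serum 4 of 6 embryonic stem cell markers were called lower, where 9.25% of all genes were, with sums of 42476 to 42799 and then 35812 to 36508. Of 4 primitive endoderm markers 1 was called higher, where 7.73% of all genes were, with sums of 126 to 132 and then 166 to 171. The 4 listed fibroblast markers summed to 618 to 655 untreated and 675 to 702 with IAA in serum. Limma called 0 of these 4, with 1 higher and 1 lower at an unadjusted p under 0.05. In untreated serum-free CTCF AID cells the 2 listed fibroblast markers summed to 34.8 to 35.5, over fewer genes and in a separately normalised table.

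In the overexpression lines the primitive endoderm sum lay at 36.7 to 60.9 without and 94.4 to 109 with IAA in control cells, and at 54.3 to 55.7 and 153 to 195 with mutated CTCF, with 1 of 2 tested markers called higher in each. The mutated line with IAA, which held the highest Cyp1a1 and Cyp1b1 levels of these lines, also held the highest primitive endoderm sum. With wild-type CTCF this sum lay at 59.6 to 88.3 and 63.2 to 77.1. Trophoblast sums were 1275 to 1349.7 without and 1699 to 1745 with IAA in control cells, 1133 to 1169.6 and 1571 to 1587 with wild-type CTCF, and 1197 to 1279 and 1691 to 1692 with mutated CTCF, with 1 of 3 called higher in each line. Of the 6 embryonic stem cell markers 3, 2 and 3 were called lower in the control, wild-type and mutated lines, and 0, 2 and 1 higher. Over all genes 12.5%, 10.3% and 7.92% were called lower in these lines in the same order, and 12.8%, 11.1% and 8.31% higher.

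In RAD21 AID cells 3 of 6 embryonic stem cell markers were called lower at each time, where 6.35% of all genes were at 12 h and 7.16% at 24 h. The trophoblast sum was 729 to 752 untreated, 489.7 to 515 at 12 h and 346 to 389 at 24 h, with 1 of 2 called lower at each time. The primitive endoderm sum was 67.4 to 88.1, 121 to 138 and 95.9 to 111 in the same order, and limma called 0 of 4 at either time, with 1 at 12 h and 0 at 24 h at an unadjusted p under 0.05. Of 2 listed fibroblast markers 1 was called higher at 24 h, where 6.54% of all genes were. Their sum was 66.5 to 111 at 24 h against 34.6 untreated. The part of these cells in the levels of the AHR genes under either auxin was not tested.

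Other genes of the pathway were taken from fixed lists. Of 6 partners and chaperones of AHR, all listed and tested, 1 was called higher and 1 lower at 12 h of IAA in CTCF AID cells (list median 0.12, median of all genes 0.00). Over all genes 9.39% were called higher and 8.4% lower in that comparison. Hsp90ab1, the constitutive HSP90, rose by 0.18 ± 0.02 log2 units there (adjusted p = 0.00255) and Arnt2, a relative of ARNT, fell by 0.68 ± 0.18 (adjusted p = 0.0404). Hsp90aa1, the inducible HSP90, differed by 0.01 ± 0.05 (adjusted p = 0.894). These genes were picked for calls in 5 IAA comparisons: CTCF AID cells at 12 h, serum and the 3 overexpression lines. Of the 5, Hsp90aa1 was called higher in 1 and lower in 2, Hsp90ab1 higher in 3 and Arnt2 lower in 1. After 24 h of IAA in CTCF AID cells limma called 3 of the 6 higher and 0 lower (list median 0.15). The counts at an unadjusted p under 0.05 were the same. The background there was 11.7% higher and 10.8% lower. In serum 2 of the 6 were called higher and 1 lower, in overexpression control cells 0 and 1, with wild-type CTCF 0 and 0 by limma (0 and 2 at an unadjusted p under 0.05) and with mutated CTCF 2 and 0. Over all genes 7.73% were called higher and 9.25% lower in serum, and 12.8% and 12.5% in control cells. With wild-type CTCF these shares were 11.1% and 10.3%, and with mutated CTCF 8.31% and 7.92%. With 5-Ph-IAA in RAD21 AID cells 1 was called lower at 12 h and 3 at 24 h, where 6.35% and 7.16% of all genes were. With the Chd4 hairpin 1 was called higher and 4 lower, where 33.5% and 33.8% of all genes were.

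Of 15 other genes described as AHR-responsive in various tissues, 7 were listed and tested in CTCF AID cells, and limma called 0 higher and 1 lower at 12 h (median 0.03), with 1 each at an unadjusted p under 0.05. At 24 h 1 was called higher and 0 lower, with 2 each at an unadjusted p under 0.05, where 11.7% of all genes were called higher and 10.8% lower. In serum 2 of 7 were called higher and 1 lower, in control cells 1 and 1, with wild-type CTCF 2 and 0, and with mutated CTCF 1 and 1. The shares of all genes called in these comparisons and at 12 h in CTCF AID cells are those given above for the partners and chaperones. In RAD21 AID cells limma called 0 of 8 at 12 h (0 higher and 1 lower at an unadjusted p under 0.05), and 2 were called higher at 24 h, where 6.54% of all genes were. With the Chd4 hairpin 6 of 7 were called lower, where 33.8% of all genes were called lower, and 0 higher. The 1 called lower at 12 h was Gsta2, a glutathione transferase, at -1.23 ± 0.26 (adjusted p = 0.0181). Nfe2l2, which encodes NRF2, differed by 0.03 ± 0.05 in CTCF AID cells (adjusted p = 0.735) and rose by 0.19, 0.18 and 0.27 log2 units in the control, wild-type and mutated overexpression lines (adjusted p = 0.00215, 0.00458 and 0.000482). Slc7a5, an amino acid transporter, differed by 0.16 ± 0.05 in CTCF AID cells (adjusted p = 0.0547). Slc7a5 fell by 0.35 ± 0.03 in serum (adjusted p = 0.000559) and by 0.18 ± 0.04 in control cells (adjusted p = 0.00941), and rose by 0.13 ± 0.04 with wild-type CTCF (adjusted p = 0.0487) and by 0.30 ± 0.02 in RAD21 AID cells at 24 h (adjusted p = 0.000566). Of 10 other xenobiotic receptors and P450 genes only 2 were tested in CTCF AID cells. Cyp51, a P450 of cholesterol synthesis, fell by 0.25 ± 0.05 at 12 h (adjusted p = 0.0108) and rose by 0.28 ± 0.05 in serum (adjusted p = 0.015). Of the 5 IAA comparisons by which it was picked, Cyp51 was called lower in 4 and higher in 1. With IAA its mean normalised count went from 6929 to 5602 in control cells and from 6762 to 5018 with wild-type CTCF. With mutated CTCF it went from 5877 to 4711.

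A list of 10 NRF2 targets other than Nqo1 was followed because Nqo1 belongs to both pathways. At 12 h of IAA in CTCF AID cells limma called 3 of 10 higher, where 9.39% of all genes were called higher, and 0 lower (median 0.28, against 0.00 over all genes). Of these 10, 5 were higher and 0 lower at an unadjusted p under 0.05. At 24 h 4 were called higher, where 11.7% of all genes were, and 1 lower (median 0.25). In serum 3 of 9 tested were called higher, where 7.73% of all genes were, and 1 lower (median 0.13). Among overexpression lines, 6 of 9 were called higher in the control line, 6 in the wild-type CTCF line and 7 in the mutated CTCF line, where 12.8%, 11.1% and 8.31% of all genes were. Limma left 0 called lower in each (medians 0.39, 0.46 and 0.46), where 1, 0 and 0 were lower at an unadjusted p under 0.05. With 5-Ph-IAA in RAD21 AID cells 2 of 10 were called higher at 12 h, where 6.66% of all genes were (median 0.23). At 24 h limma called 0 of 10 in either direction (median 0.05), where 1 was higher and 1 lower at an unadjusted p under 0.05.

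Of this list Srxn1, Txnrd1 and Gclc were picked for being called most often in 5 comparisons, so their counts of calls follow from that choice. The 5 comparisons were CTCF AID cells at 12 h, serum and the 3 overexpression lines. Among the other list genes Gstm1 was called in 0 of 5, and Slc7a11 and Ftl1 in 1 of 5 each. Srxn1, which encodes sulfiredoxin, rose in 5 of 5, by 0.46 ± 0.06 in CTCF AID cells and by 0.47 ± 0.05 in serum. In overexpression control, wild-type and mutated CTCF cells it rose by 1.00, 1.28 and 1.30 log2 units, each ± 0.05. Txnrd1, a thioredoxin reductase, also rose in 5 of 5, by 0.13 in serum to 0.63 with wild-type CTCF. Gclc, which encodes the catalytic subunit of glutamate-cysteine ligase, an enzyme of glutathione synthesis, rose in 4 of 5 and fell by 0.20 in serum (adjusted p = 0.0375). With the Chd4 hairpin 4 of the 10 were called higher and 4 lower (median -0.06), close to the shares of all genes called there (33.5% higher and 33.8% lower). Nqo1 fell by 1.69 log2 units there, and single list genes went both ways. The mean normalised count of Gstm1 went from 1945 to 602 and that of Ftl1 from 6755 to 2164. That of Slc7a11 went from 31.6 to 69.9, and Srxn1 differed by -0.04 ± 0.07 (limma adjusted p = 0.642).

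**Figure D4:**
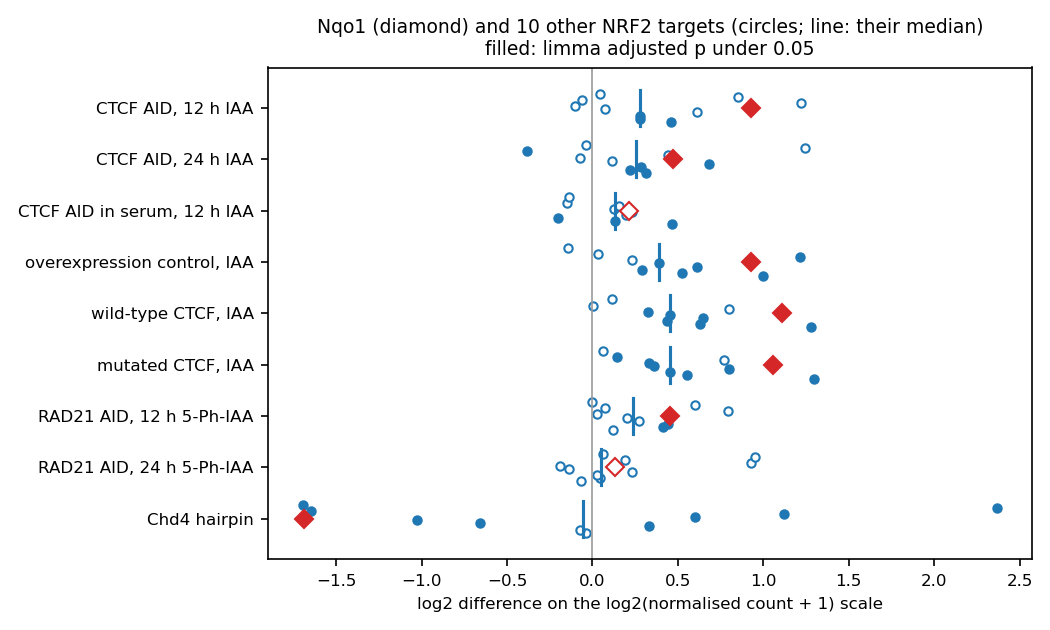
Log2 differences, on the log2(normalised count + 1) scale, of Nqo1 (diamonds) and of the tested genes among 10 other NRF2 targets (circles, with a line at their median) in 9 comparisons, filled where limma's adjusted p was under 0.05. Nqo1 lies at 0.93 to 1.11 in the overexpression lines with IAA, above list medians of 0.39 to 0.46. Srxn1 of the list lies further to the right than Nqo1 in each of these lines. With the Chd4 hairpin Nqo1 lies at -1.69, where the list spreads on both sides of 0.

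The genes whose pattern was most like that of Cyp1a1 were sought over the 22 libraries of the CTCF AID, serum and overexpression tables, after centring each gene within each table, among 12799 genes. The 22 points fall into treated and untreated groups and share their libraries, so the correlations describe these libraries and carry no p. Cyp1b1 was the most alike (Pearson r = 0.975, Spearman rho = 0.951). It was followed by Cbr3, a carbonyl reductase (r = 0.967, rho = 0.857), Thbs2, which encodes thrombospondin 2 (r = 0.967, rho = 0.948), Rabif (r = 0.957, rho = 0.855) and Hmgb3 (r = 0.955, rho = 0.945). Among other members Nqo1 had r = 0.92 and rank 41, Tiparp r = -0.40, Aldh3a1 r = -0.37 and Ahr r = -0.83. By Spearman's rho the order differed, with Irak3 and N4bp1 (rho = 0.957 and 0.953) ahead of Cyp1b1.

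Outside the libraries used for that ranking, Cbr3 and Rabif parted from Thbs2 and Hmgb3 with the Chd4 hairpin, where 33.5% of all genes were called higher and 33.8% lower. Cbr3 fell from 576 and 587 normalised counts to 75.1 and 86.4 (log2 difference -2.84 ± 0.13, adjusted p = 6.98e-06). Thbs2 rose from 14.3 and 10.4 to 40.6 and 34.0 (1.53 ± 0.33, adjusted p = 0.00539). Rabif fell by 0.63 ± 0.07 log2 units (adjusted p = 0.00025) and Hmgb3 rose by 0.45 ± 0.05 (adjusted p = 0.000374). Cbr3 and Rabif thus had the direction of Nqo1 there, and Thbs2 and Hmgb3 that of Cyp1a1. In RAD21 AID cells at 12 h Cbr3 rose from 702 and 744 to 1078 and 1014 (0.53 ± 0.07, adjusted p = 0.00602), and Thbs2 is without a value there. Hmgb3 rose at 12 h (0.32 ± 0.06, adjusted p = 0.0143) and was lower at 24 h (-0.25 ± 0.06, adjusted p = 0.0304) than untreated. Rabif did not pass at 12 h (adjusted p = 0.159) or 24 h (adjusted p = 0.822), nor did Cbr3 at 24 h (adjusted p = 0.743).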

How the data were processed

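Polyadenylated RNA was sequenced from E14 cells. The authors deposited 5 tables of normalised counts, a non-negative signal per gene, named so per the labels. The submitters' processing notes name Trim Galore, Bowtie2, STAR, RSEM, DESeq2 and build mm10, without versions or roles. How the values were normalised, which genes were listed and whether strand was used are not given in the sources used here. Values were not whole multiples of a step, so whole reads could not be recovered, count tests were not used and depth is unknown. The CTCF AID table ends in 1 incomplete line, which was dropped, and 0 columns were left unmapped.

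Columns were mapped to samples by their labels. Genes whose mean over a table reached 10 were fitted with all its groups on log2(value + 1) in limma 3.58.1 (R 4.3.3, mean trend), with Benjamini-Hochberg adjustment over all 13699 to 15499 genes of the table and calls at adjusted p under 0.05. A log2 difference on this scale understates changes of low genes. Tests stayed within a table. Intervals are 95%, not adjusted. The share of all genes whose libraries did not overlap was not computed, so lack of overlap is a description and not a test. The code was tested on simulated data. Alternatives were pseudocounts of 0.5 and 10, no filter, a mean of at least 100, quantile normalisation, a replicate block, a fit of the compared groups alone, groups by the treatment label, and leaving out each library. Leaving out the 4 libraries with conflicting labels was added after seeing the data.

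The members and gene lists were chosen with earlier results of these data known. All 8 members are named. Of each pathway list at most 3 genes are named for being called most often in 5 comparisons of IAA (CTCF AID cells at 12 h, serum and the 3 overexpression lines), ties going to the larger difference in CTCF AID cells. The markers of 4 cell types are given as lists, and single ones named to say which are not listed or as a check. The 5 genes most like Cyp1a1 are those with the highest Pearson r. Irak3, N4bp1, Gstm1, Ftl1 and Slc7a11 were named after their values were seen. Positions are from GENCODE M21 (GRCm38). Promoters are from RefSeq (GRCm38.p6), where 6 of 8 members matched.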

Additional observations from a re-analysis of the deposited data

Results flagged for a closer look

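Tiparp moved in opposite directions under IAA in different tables. Its log2 difference was 0.32 in CTCF AID cells at 12 h and 0.0565 in serum, with all treated libraries above the untreated ones. The serum difference did not pass (limma adjusted p = 0.428), and the 12 h call did not hold without any 1 of its libraries, as given above. At 24 h in CTCF AID cells the Tiparp difference was 0.43 ± 0.07 (limma adjusted p = 0.00692). In the overexpression table it was -0.67 (control), -0.45 (wild-type CTCF) and -0.50 (mutated CTCF), with all treated libraries below the untreated ones. Aldh3a1 showed the same split with none of its differences past the threshold, at 0.42 in CTCF AID cells at 12 h and at -0.41, -0.42 and -0.61 in the control, wild-type and mutated overexpression lines. The tables were normalised separately, so neither difference between them was tested, and the lines and tables cannot be told apart.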

How the results depend on the processing

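Each group held 2 libraries and the reads behind a value are not known, so calls of low members (Cyp1a2, Ahrr) rest on few libraries. The counts of called members kept within 1.5 times of the reported ones under both other pseudocounts and without a filter. With a mean of at least 100, under which low members are not tested, the counts were 3 at 12 h and 3 at 24 h in CTCF AID cells, 1 in serum, 1 for mutated CTCF without IAA and 3 for the Chd4 hairpin. A fit of the compared groups alone gave 0 for 24 h against 12 h in CTCF AID cells, 0 for wild-type CTCF without IAA and 0 for RAD21 AID cells at 24 h. Quantile normalisation gave 1 for mutated CTCF without IAA (Cyp1a1, adjusted p = 0.0491). Leaving out 1 library leaves 1 in its group, and fewer members were then called in several comparisons. Among them were 12 h of IAA in CTCF AID cells, 24 h against 12 h in those cells, serum and mutated CTCF with IAA. RAD21 AID cells at 24 h, and 24 h against 12 h there, were others. At 12 h in CTCF AID cells the log2 differences in those fits lay between 1.36 and 2.11 for Cyp1a2 and between 0.31 and 0.32 for Tiparp.

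Groups by the treatment label put libraries titled with and without IAA together and gave 0 called members in overexpression control cells and 0 for wild-type CTCF without IAA, where the Nqo1 difference reversed from -0.35 to 0.21. With the 4 conflicting libraries left out the control count was 6. Replicate numbers did not pair the libraries: deviations of same-numbered libraries correlated between -0.063 and 0.102. With the replicate block 24 h against 12 h in CTCF AID cells had 0 called members (Nqo1 adjusted p = 0.0607), and the block moved no other count by over 1.5 times. The cause of these changes was not tested.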
